A study of Mus musculus with 10 samples.

Results

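The genes described here are 47 DNA repair genes of the mouse, chosen by name from the homologous recombination, Fanconi anaemia, mismatch repair and end joining pathways and the damage checkpoint and base excision genes that work beside them. They were taken from 54838 genes listed for each library. All 47 were among the 14719 genes with enough counts to be tested. Their levels were compared between crypts of WT and Arid3a cKO mice, with the question of how the repair transcripts of the crypt stood before any injury. The study that produced these libraries also irradiated mice, but the 10 libraries used here came from animals without irradiation.

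Crypts are the pockets at the base of the intestinal epithelium where its stem cells and dividing progenitors lie, and ARID3A is a DNA-binding transcription factor. The cKO animals (VillinCre-ERT2; Arid3a fl/fl) carried floxed Arid3a alleles and a tamoxifen-activated Cre recombinase driven by the Villin promoter, so the deletion was limited to intestinal epithelial cells and their descendants. Both WT and cKO animals received tamoxifen on 3 consecutive days and were culled 1 month after the first injection, with 5 libraries of jejunal crypts per genotype and 1 animal per library. Whether the WT animals carried the Cre transgene was not given in the sources used here. The animal numbers in the labels begin with a different prefix in each genotype. What the prefix marks was not given in the sources used here, and whatever it marks cannot be told apart from genotype.

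Double-strand breaks are repaired by copying or by rejoining. In homologous recombination the ends are cut back to single strands and copied from the sister chromatid, which restricts the pathway largely to cells in or after DNA replication. End joining rejoins the ends directly at any stage of the cell cycle. The Fanconi anaemia proteins release cross-links that block the replication fork and hand the resulting break to recombination. Mismatch repair corrects errors of the copying polymerase, and base excision removes single damaged bases. In the small intestine the dividing cells of the crypt are the ones that die soonest after radiation, and many of these genes are transcribed most in replicating cells.

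The library totals lay between 27050455 and 28152743 expected counts in WT and between 28314069 and 31053622 in cKO crypts, so that every cKO total was above every WT total. A repair gene was counted 98 to 5827 times per library. Arid3a itself had 55 to 81 counts in the WT libraries and 9 to 31 in the cKO libraries (log2 fold change -1.84 ± 0.32 SE, adjusted p = 0.00204), so the labels and the targeted gene matched. Epithelial markers (Epcam, Cdh1, Vil1, Krt8, Krt19 and Cldn7) summed to 4597 to 5122 TPM in WT and 4640 to 5523 TPM in cKO libraries. Among them Vil1 was higher without overlap, at 266 to 349 TPM in WT and 362 to 548 TPM in cKO libraries. The fibroblast, endothelial, smooth muscle and myeloid lists reached at most 49.9 TPM in any library. The T cell and intraepithelial lymphocyte list was higher and varied widely, at 91.05 to 335 TPM in WT and 134 to 351 TPM in cKO libraries. The 6 enterocyte markers summed to 1262 to 5877 TPM in WT and 6202 to 11781 TPM in cKO libraries. The 6 Paneth cell markers summed to 42864 to 62601 TPM in WT and 24926 to 35474 TPM in cKO libraries, and the 6 B and plasma cell markers to 20.2 to 60.5 TPM in WT and 6.89 to 18.6 TPM in cKO libraries. The low fibroblast, endothelial, smooth muscle and myeloid lists had median log2 fold changes of -0.17, -0.53, -0.73 and -0.56. No gene of the marker lists was at 0 in every library. Their part in the repair gene values was not tested.

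Transcripts of these 47 genes were mostly lower in cKO crypts, by a modest amount and with called genes in each of the 8 groups. Of the 47 genes, 25 fell past the threshold of adjusted p below 0.05, none rose past it, and 22 did not pass it. Over all tested genes 12.7% were called lower and 15.6% higher, so 53.2% of the 47 genes against 12.7% of all genes were called lower. The 47 were chosen with earlier results of these data known, so this contrast is a description and not a test. Among 128 other tested repair genes 33 fell, with a median log2 fold change of -0.11. The median log2 fold change of the 47 genes was -0.28 (range -0.66 for Fanca to 0.20 for Lig4), beside -0.03 over all genes tested. Of the 47 estimates 43 were negative, against 54.1% of those of all genes. The reduction of the called genes ran from 12.8% for Xrcc6, a subunit of the Ku end-binding complex, to 36.8% for Fanca, a core Fanconi anaemia protein. In whole crypts, fewer cells that make a transcript and less of that transcript per cell cannot be told apart.

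When single libraries were left out, the size of the count varied more than the direction did. It came to 16 without WT replicate 3, 16 without WT replicate 4, 15 without cKO replicate 1, 16 without cKO replicate 4 and 16 without cKO replicate 5. Without WT replicates 1, 2 and 5 it was 19, 25 and 25, and without cKO replicates 2 and 3 it was 23 and 21. Each of these fits had 1 library fewer, and what part this had in the lower counts was not tested. The log2 fold changes of the 25 called genes stayed negative under all 21 alternatives, and 13 of the 25 passed the threshold in each of them. These 13 were Brca1, Palb2, Rad51b, Xrcc3, Rad54l, Fanca, Msh6, Exo1, Topbp1, Chek1, Ung, Parp1 and Lig1, which take part in recombination, cross-link repair, mismatch repair, checkpoint signalling and the repair of single bases and nicks. None of the 13 was in the break sensing, RecQ helicase or end joining groups. The calls in those groups, Mre11a, Blm, Xrcc5 and Xrcc6, were lost under 14, 8, 15 and 14 of the 21 alternatives.

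**Figure D1:**
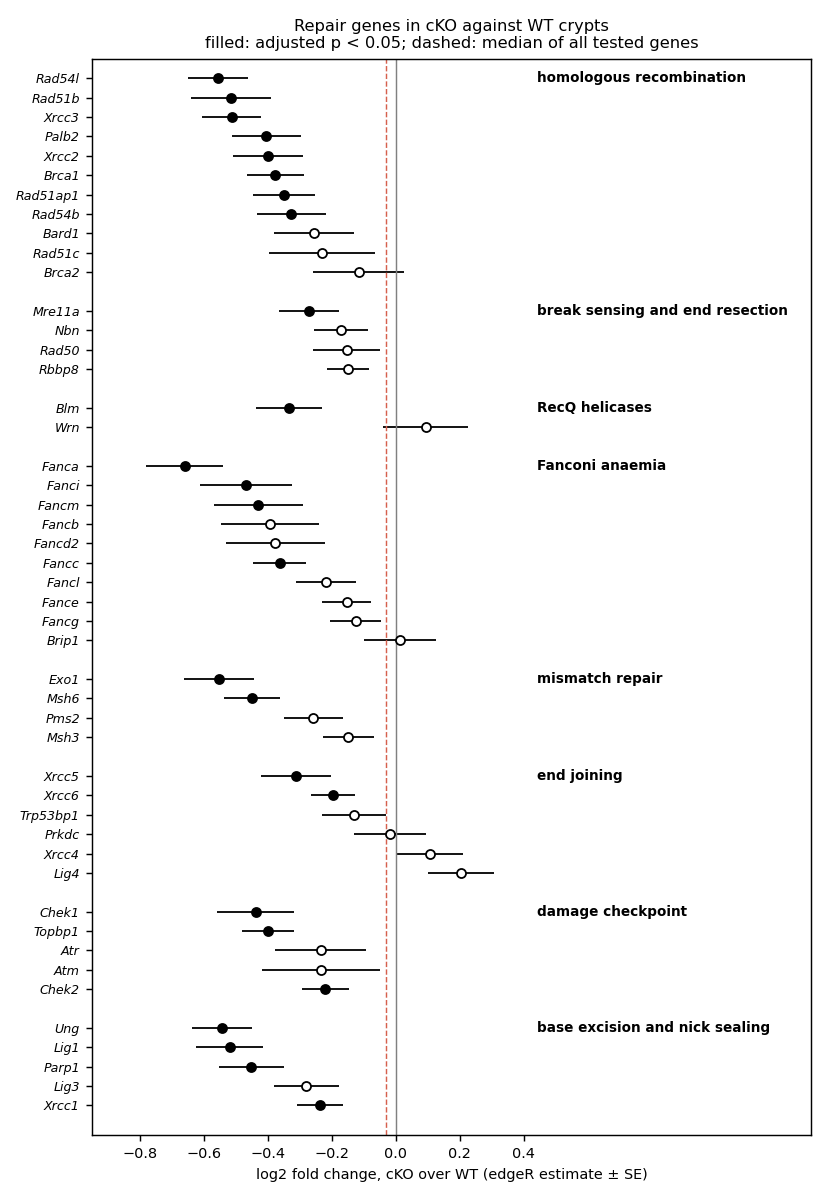
Log2 fold change of cKO over WT crypts (x axis, edgeR estimate ± SE over 5 libraries per genotype) for the 47 repair genes, grouped by pathway. Filled points passed the adjusted threshold of 0.05: all 25 lie left of 0, and the 4 points right of 0 (Lig4, Xrcc4, Wrn and Brip1) are open; the dashed line is the median of all tested genes, -0.03.

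Homologous recombination held the most called genes, 8 of 11, and all 11 estimates were negative (median log2 fold change -0.38). Rad54l, a DNA translocase that helps the recombinase filament search for and invade the matching strand, was the clearest member by adjusted p (chromosome 4, 116094264 to 116123690, minus strand, GRCm38). It stood at 38.8, 40.7, 39.6, 42.1 and 36.01 CPM in the WT libraries. In cKO it had 29.2, 28.5, 30.6, 23.2 and 22.5 CPM. Each cKO library was below each WT library (log2 fold change -0.56 ± 0.09 SE, adjusted p = 0.00192). Of its annotated exonic bases 15.4% are shared with Lrrc41 on the opposite strand. The log2 fold change of Lrrc41 was -0.14 with adjusted p = 0.145. Over all tested genes 7.62% showed such complete separation in the lower direction, against 14 of the 47 repair genes (29.8%), and no repair gene was separated in the higher direction.

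The paralogues of the recombinase assemble into complexes that stabilise its filament on single-stranded DNA, and Xrcc3, Rad51b and Xrcc2 among them were also separated. Xrcc3 stood at 12.3, 11.3, 14.1, 13.5 and 10.8 CPM in the WT libraries. The cKO values were 8.18, 8.77, 8.91, 8.56 and 9.0 CPM (log2 fold change -0.51 ± 0.09 SE, adjusted p = 0.00257). These cKO values lay close together and below the lowest WT library. Rad51b was one of the least abundant repair genes, at 7.03, 5.299, 6.24, 5.66 and 5.596 CPM in the WT libraries. Levels in cKO were 4.28, 4.79, 3.53, 3.94 and 4.31 CPM (log2 fold change -0.52 ± 0.13 SE, adjusted p = 0.0107). Here too the cKO range ended below the WT range. Xrcc2 had 7.86, 7.05, 7.12, 8.07 and 7.49 CPM in the WT libraries. The corresponding cKO values were 5.45, 5.78, 6.67, 5.81 and 4.73 CPM (log2 fold change -0.40 ± 0.11 SE, adjusted p = 0.0177), and its call was lost under 2 of 21 alternatives. All 3 had no overlap between genotypes, although the highest cKO library of Xrcc2, 6.67 CPM, lay near the lowest WT library, 7.05 CPM. The further paralogue Rad51c did not pass the threshold (-0.23 ± 0.17, adjusted p = 0.316), and its estimate ranged from -0.36 to -0.06 over the alternatives.

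The scaffold genes that bring the recombinase to a break did not all pass the threshold. Apart from the ratio of Brca1 to Bard1, differences between them were not tested. Brca1, the ubiquitin ligase subunit that promotes end resection and recruits its partners (chromosome 11, 101488764 to 101551955, minus strand, GRCm38), stood at 36.2, 33.2, 42.7, 40.5 and 33.7 CPM in the WT libraries. The cKO libraries held 29.4, 30.5, 31.03, 25.9 and 26.5 CPM. Its libraries did not overlap (log2 fold change -0.38 ± 0.09 SE, adjusted p = 0.009). Palb2, which links the BRCA1 and BRCA2 proteins, was separated at a lower level, 10.2, 10.2, 12.9, 12.6 and 10.7 CPM in the WT libraries. In cKO it had 7.61, 9.72, 9.22, 8.09 and 7.98 CPM (log2 fold change -0.41 ± 0.11 SE, adjusted p = 0.0153). Brca2, which loads the recombinase on DNA, did not pass the threshold (-0.12 ± 0.14, adjusted p = 0.566). Its libraries overlapped, from 16.4 CPM in WT replicate 5 to 27.8 CPM in WT replicate 1 and from 17.7 to 25.9 CPM in cKO. Bard1, the obligate partner of BRCA1, did not pass it either (-0.26 ± 0.13, adjusted p = 0.146). The ratio of Brca1 to Bard1 on the TPM scale, which is per transcript length, was 1.88 ± 0.256 in the WT libraries and 1.67 ± 0.157 in the cKO libraries. The two-sided exact permutation p was 0.159, and 0.159 after adjustment over 4 ratios of partner genes.

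The accessory genes of strand invasion completed the group. Rad51ap1, which stimulates joint formation by the recombinase and had the highest TPM of the 11 (20.5 ± 2.198 TPM in WT and 13.9 ± 1.82 TPM in cKO crypts), stood at 15.7, 17.03, 14.1, 17.4 and 17.04 CPM in the WT libraries. The cKO values were 11.5, 13.96, 14.7, 11.6 and 11.99 CPM. It fell (log2 fold change -0.35 ± 0.10 SE, adjusted p = 0.019). In 1 pair the libraries overlapped, WT replicate 3 at 14.1 CPM below cKO replicate 3 at 14.7 CPM. The call was lost under 3 of 21 alternatives. Rad54b, a relative of Rad54l, also passed the threshold (-0.33 ± 0.11, adjusted p = 0.0387), but lost it under 13 of 21 alternatives. Of its annotated exonic bases 35.8% lie in Fsbp on the same strand, a gene at 0.86 CPM.

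**Figure D2:**
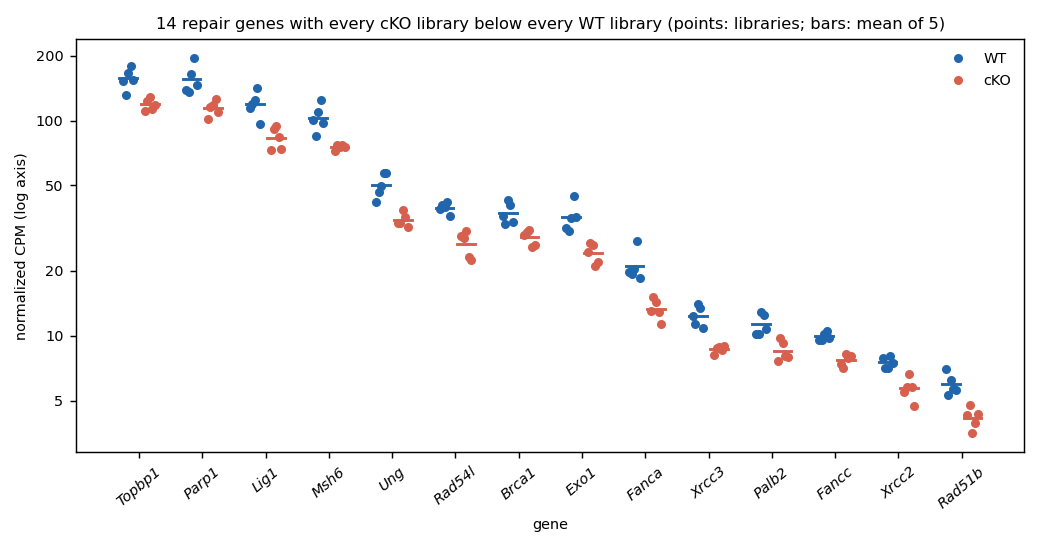
Normalized CPM (y axis, log scale) of the 14 repair genes whose 5 cKO libraries (red) all lay below their 5 WT libraries (blue), with 1 point per library and a bar at each mean. The genes run from Topbp1, at 131 to 179 CPM in WT, to Rad51b, at 5.30 to 7.03 CPM.

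Break sensing and end resection showed smaller differences, with 1 of 4 genes called (median log2 fold change -0.16). Mre11a, the nuclease of the complex that binds a fresh break (chromosome 9, 14784654 to 14837123, plus strand, GRCm38), stood at 37.3, 35.2, 41.6, 39.4 and 28.9 CPM in the WT libraries. Levels in cKO were 28.7, 31.3, 33.5, 28.7 and 28.8 CPM. It was just past the threshold (log2 fold change -0.27 ± 0.10 SE, adjusted p = 0.0493), the genotypes overlapped, and the call was lost under 14 of 21 alternatives. Nbn, the subunit that recruits the ATM kinase and the one with the highest TPM of the 4, stood at 36.3, 37.3, 42.1, 47.5 and 44.7 CPM in the WT libraries. The corresponding cKO values were 36.7, 39.7, 38.99, 33.9 and 35.5 CPM. Its libraries overlapped and it did not pass the threshold (log2 fold change -0.17 ± 0.09 SE, adjusted p = 0.151). Rad50, the ATPase of the same complex, and Rbbp8, which starts resection, gave -0.15 ± 0.11, adjusted p = 0.294 and -0.15 ± 0.06, adjusted p = 0.0994.

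The RecQ helicases unwind branched DNA at stalled forks and recombination joints, and their estimates had opposite signs, a difference that was not tested. Blm, the helicase lost in Bloom syndrome (chromosome 7, 80454733 to 80535119, minus strand, GRCm38), stood at 20.1, 16.96, 21.2, 21.2 and 16.6 CPM in the WT libraries. The cKO libraries held 14.2, 17.9, 15.9, 13.7 and 14.3 CPM. It fell (log2 fold change -0.34 ± 0.10 SE, adjusted p = 0.0305) with overlap between cKO replicate 2 and the 2 lowest WT libraries, and the call was lost under 8 of 21 alternatives. Wrn, the helicase lost in Werner syndrome, gave 0.09 ± 0.13, adjusted p = 0.629, and its estimate ranged from -0.04 to 0.16 over the alternatives.

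The Fanconi anaemia genes divided between members that fell and members that did not pass the threshold, 4 of 10 called and 9 of 10 with negative estimates (median log2 fold change -0.37). Fanca, a scaffold of the core ubiquitin ligase complex (chromosome 8, 123268300 to 123318576, minus strand, GRCm38), had the lowest log2 fold change of all 47 genes. It stood at 19.8, 19.3, 20.4, 27.6 and 18.5 CPM in the WT libraries. In cKO it had 12.996, 15.1, 14.4, 12.9 and 11.3 CPM (log2 fold change -0.66 ± 0.12 SE, adjusted p = 0.00274). All cKO libraries were below all WT libraries, and WT replicate 4 was far above the other WT libraries. Without it the log2 fold change was -0.55 (adjusted p = 0.00366). Zfp276 on the opposite strand shares 10.5% of the exonic bases of Fanca and gave -0.20 on the log2 scale (adjusted p = 0.0796).

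Fancc, another core subunit, was the other separated member, at 9.57, 9.57, 10.2, 10.5 and 9.81 CPM in the WT libraries. The cKO values were 7.41, 7.07, 8.25, 7.85 and 8.05 CPM (log2 fold change -0.36 ± 0.08 SE, adjusted p = 0.00806). Its call was lost when the effective transcript length of each library entered the fit (-0.25, adjusted p = 0.115). Fancm, the translocase that anchors the core complex at a stalled fork, fell with -0.43 ± 0.14, adjusted p = 0.0362, and lost the threshold under 11 of 21 alternatives. Fanci, a subunit of the clamp that the core complex ubiquitinates, fell with -0.47 ± 0.14, adjusted p = 0.028, with the call lost under 6 of 21. It shares 16.0% of its exonic bases with Polg on the opposite strand, and Polg itself gave -0.23 (adjusted p = 0.0312).

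Fancd2, the clamp partner of Fanci, had an estimate of -0.38 ± 0.15, adjusted p = 0.0843, which did not pass the threshold. The TPM ratio of Fancd2 to Fanci was 0.979 ± 0.108 in the WT libraries and 1.12 ± 0.104 in the cKO libraries. The two-sided exact permutation p was 0.0794, and 0.106 after adjustment. Fance, the core subunit that contacts the clamp and the most abundant Fanconi transcript per length (17.7 ± 1.59 TPM in WT and 14.6 ± 1.15 TPM in cKO crypts), stood at 16.3, 17.4, 15.5, 16.2 and 16.1 CPM in the WT libraries. Levels in cKO were 13.6, 14.8, 16.6, 13.9 and 14.4 CPM. Its libraries overlapped on the CPM scale (log2 fold change -0.15 ± 0.08 SE, adjusted p = 0.154). The core subunits Fancb (-0.40 ± 0.15, adjusted p = 0.0716), Fancg (-0.13 ± 0.08, adjusted p = 0.261) and Fancl (-0.22 ± 0.09, adjusted p = 0.101), the last of which is the ligase itself, did not pass the threshold. Brip1, a helicase that binds BRCA1, stood closest to 0 of all 47 genes (0.01 ± 0.11, adjusted p = 0.948).

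In mismatch repair, 2 of 4 genes fell and both were separated (median log2 fold change -0.35). Msh6, the subunit that recognises single-base mismatches and the most abundant of the 4 per length (32.3 ± 6.34 TPM in WT and 21.96 ± 1.101 TPM in cKO crypts), lies at chromosome 17, 87975062 to 87990892, plus strand (GRCm38). It stood at 101, 84.5, 109.6, 124 and 96.9 CPM in the WT libraries. The corresponding cKO values were 72.1, 77.2, 75.7, 77.2 and 75.5 CPM. The 5 cKO values were close together and all below the lowest WT value (log2 fold change -0.45 ± 0.09 SE, adjusted p = 0.00412). Exo1, the exonuclease that removes the strand carrying the error and also resects breaks, stood at 31.7, 30.8, 35.1, 44.7 and 35.7 CPM in the WT libraries. The cKO libraries held 24.5, 27.1, 26.4, 21.1 and 21.97 CPM with the genotypes likewise separated (log2 fold change -0.55 ± 0.11 SE, adjusted p = 0.00419). Msh3, which forms the alternative complex for larger loops, did not pass the threshold (-0.15 ± 0.08, adjusted p = 0.178), nor did Pms2, the endonuclease subunit that nicks the strand (-0.26 ± 0.09, adjusted p = 0.0527).

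Msh6 and Msh3 compete for the same partner subunit, and their ratio was the only one of 4 ratios of partner genes to pass the adjusted threshold. On the TPM scale Msh6 exceeded Msh3 by 2.21, 1.64, 2.06, 2.21 and 1.91 times in the WT libraries and by 1.59, 1.52, 1.63, 1.597 and 1.46 times in the cKO libraries. The mean ratio was 2.01 ± 0.239 in the WT libraries and 1.56 ± 0.0693 in cKO crypts (mean ± SD over 5 libraries), and every cKO library lay below every WT library. The two-sided exact permutation p was 0.00794, the smallest that 252 assignments can give, or 0.0318 after adjustment over the 4 ratios. The 4 pairs were chosen as known partners with the single-gene values already in view.

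End joining had the median closest to 0 of the 8 groups, a log2 fold change of -0.08, with 2 of 6 genes called. Xrcc6 and Xrcc5 encode the Ku70 and Ku80 subunits that close around a broken end. Xrcc6, the third most abundant of the 47 genes per length (47.2 ± 6.36 TPM in WT and 41.4 ± 1.72 TPM in cKO crypts), lies at chromosome 15, 81987835 to 82040085, plus strand (GRCm38). It stood at 60.7, 63.9, 66.8, 75.6 and 66.7 CPM in the WT libraries. In cKO it had 59.1, 58.9, 61.4, 56.1 and 55.6 CPM. The WT and cKO ranges overlapped by 1 pair of libraries, WT replicate 1 below cKO replicate 3 (log2 fold change -0.20 ± 0.07 SE, adjusted p = 0.0461). The call was lost under 14 of 21 alternatives, and with the effective transcript length in the fit the estimate was -0.07 (adjusted p = 0.513). Xrcc5 was as close to the threshold (-0.31 ± 0.11, adjusted p = 0.0497) and lost it under 15 of 21 alternatives. The TPM ratio of Xrcc5 to Xrcc6 was 0.3401 ± 0.0399 in the WT libraries and 0.292 ± 0.0198 in the cKO libraries. The two-sided exact permutation p was 0.0635, and 0.106 after adjustment.

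The later steps of end joining held 2 of the 4 positive estimates. Lig4, the ligase of the pathway, had the highest log2 fold change of the 47 (0.20 ± 0.10, adjusted p = 0.158). It passed the threshold only without WT replicate 1 (0.28, adjusted p = 0.0473), whose value of 19.7 CPM stood above the 14.8 to 16.0 CPM of the other WT libraries. Xrcc4, the partner that stabilises this ligase, gave 0.11 ± 0.10, adjusted p = 0.465. Prkdc, the DNA-dependent kinase recruited by Ku, gave -0.02 ± 0.11, adjusted p = 0.917 and was the least abundant of the 47 genes per length (2.46 TPM over all libraries). Trp53bp1, the chromatin reader that shields ends from resection, gave -0.13 ± 0.10, adjusted p = 0.344.

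All 5 checkpoint genes had negative estimates, and 3 were called (median log2 fold change -0.24). Topbp1, which activates the ATR kinase and also helps replication origins to fire (chromosome 9, 103305215 to 103350428, plus strand, GRCm38), was the most abundant of them per length (46.4 ± 6.55 TPM in WT and 32.04 ± 1.41 TPM in cKO crypts). It stood at 153, 131, 167, 179 and 155 CPM in the WT libraries. The cKO values were 111, 123, 129, 113 and 119 CPM, with no overlap between genotypes (log2 fold change -0.40 ± 0.08 SE, adjusted p = 0.00489). Chek1, the kinase that ATR switches on at stalled forks, fell (-0.44 ± 0.12, adjusted p = 0.0179) from 23.0 to 29.0 CPM in WT to 15.5 to 23.1 CPM in cKO libraries, and kept its call under all 21 alternatives although cKO replicate 3 lay above the lowest WT libraries. Chek2, the kinase downstream of ATM, passed the threshold (-0.22 ± 0.07, adjusted p = 0.0434) and lost it under 10 of 21 alternatives. Atm and Atr themselves, the apical kinases for breaks and for stalled forks, gave -0.23 ± 0.18, adjusted p = 0.362 and -0.24 ± 0.14, adjusted p = 0.232. Their WT libraries were widely spread, from 27.6 to 50.9 CPM for Atm and from 28.5 to 51.2 CPM for Atr.

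Base excision and nick sealing held the most abundant genes and, with 4 of 5 called, the lowest median log2 fold change of the 8 groups (-0.45). Ung, the glycosylase that removes uracil from DNA (chromosome 5, 114130386 to 114139323, plus strand, GRCm38), stood at 41.9, 46.4, 49.6, 57.1 and 56.9 CPM in the WT libraries. Levels in cKO were 33.3, 33.3, 38.4, 35.7 and 32.2 CPM. Its libraries were separated (log2 fold change -0.54 ± 0.09 SE, adjusted p = 0.00205). Lig1, the ligase that joins Okazaki fragments and finished repair patches, was the most abundant of all 47 genes per length (68.5 ± 13.6 TPM in WT and 41.7 ± 4.27 TPM in cKO crypts). It stood at 114, 119.9, 125, 141 and 96.8 CPM in the WT libraries. The corresponding cKO values were 73.03, 91.1, 94.3, 83.99 and 74.04 CPM (log2 fold change -0.52 ± 0.10 SE, adjusted p = 0.00437). The genotypes were separated, with WT replicate 5 at 96.8 CPM just above the highest cKO library at 94.3 CPM.

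Parp1, which marks broken DNA with poly(ADP-ribose), was the next most abundant (57.8 ± 10.01 TPM in WT and 39.3 ± 4.07 TPM in cKO crypts), at 138, 136, 165, 195 and 147 CPM in the WT libraries. The cKO libraries held 101, 115, 118, 127 and 109.8 CPM (log2 fold change -0.45 ± 0.10 SE, adjusted p = 0.00734). Xrcc1, the scaffold of single-strand break repair, fell less (-0.24 ± 0.07, adjusted p = 0.0288), and its call was lost under 8 of 21 alternatives. Lig3, the ligase that XRCC1 binds, did not pass the threshold (-0.28 ± 0.10, adjusted p = 0.0572). Of its exonic bases 25.1% are shared with Rffl on the opposite strand, and Rffl gave 0.13 on the log2 scale (adjusted p = 0.21).

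Summed over each group, TPM was highest for base excision and nick sealing and next for the checkpoint genes in both genotypes. Base excision and nick sealing had 210.4, 199, 229, 269 and 187 TPM in the WT libraries. The cKO sums were 140.4, 147, 157, 163 and 135 TPM. The lowest WT sum was above the highest cKO sum. Homologous recombination had 90.5, 85.2, 90.97, 99.01 and 78.2 TPM in the WT libraries. The cKO sums were 60.3, 68.7, 67.7, 62.2 and 57.7 TPM. In these groups each cKO library was below each WT library, as it was for the checkpoint, mismatch repair and Fanconi anaemia groups, 5 of the 8 groups in all. The 47 genes together made up 750.4 ± 103 in WT and 549.9 ± 25.4 in cKO crypts (TPM, mean ± SD, n = 5 each), and the 5 most abundant of them supplied 34.7% of the total. TPM is a share of all transcripts. On this scale the median log2 difference of all tested genes was itself -0.13 (pseudocount 0.1), and that of the 47 genes was -0.38. End joining overlapped between genotypes (87.7 ± 13.7 in WT and 75.3 ± 2.32 in cKO crypts), and so did break sensing (69.7 ± 12.1 in WT and 54.5 ± 1.99 in cKO crypts) and the RecQ helicases (14.1 ± 2.17 in WT and 11.6 ± 1.37 in cKO crypts).

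**Figure D3:**
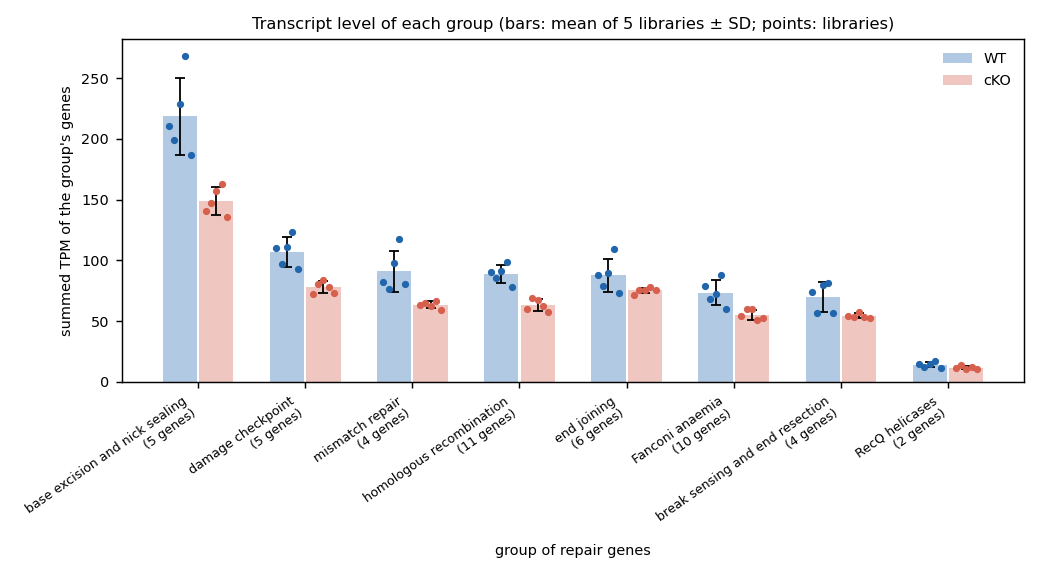
Summed TPM (y axis) of the genes of each of the 8 repair groups, as mean ± SD of 5 libraries per genotype (bars) with the single libraries as points. The largest group total is that of base excision and nick sealing, 219 ± 31.8 TPM in WT and 149 ± 11.5 TPM in cKO crypts; the RecQ helicases have the lowest, and the points of that group, of end joining and of break sensing overlap between genotypes.

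Of the 10 repair genes with the highest mean TPM, 9 were called lower, and of the 10 with the lowest, 4 were. Abundant genes are measured with a smaller counting error, and what part the depth had in this was not tested. Within a genotype the same libraries were often the highest. Of the 47 genes, 37 had their highest WT value in replicate 3 or 4, and 41 their highest cKO value in replicate 2 or 3. The median SD was 11.5% of the mean in WT and 9.50% in cKO libraries.

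The repair genes were set beside genes of the cell cycle phases, for which the Seurat package holds lists of S-phase and of G2/M genes. Of the 47 genes, 5 (Exo1, Blm, Ung, Rad51ap1 and Brip1) are on the S-phase list and were left out of it. The median log2 fold change was -0.40 over the other 38 S-phase genes, of which 33 were called lower and none higher. It was -0.17 over 54 G2/M genes, of which 9 were called lower. Of the repair genes, 15 had an estimate below the S-phase median. The mean centred log2 CPM of the repair genes was 0.15, 0.02, 0.24, 0.28 and -0.01 in the WT libraries. In the cKO libraries it was -0.21, -0.02, -0.05, -0.20 and -0.21. The WT libraries with the most repair transcripts were thus replicates 3 and 4. That of the 38 S-phase genes was 0.11, 0.11, 0.24, 0.38 and 0.16 in the WT libraries. In the cKO libraries it was -0.28, -0.12, -0.06, -0.26 and -0.28. Both were highest in WT replicates 3 and 4, and in both every cKO library lay below every WT library (for the repair genes, -0.01 in WT replicate 5 against -0.02 in cKO replicate 2). The enterocyte marker sum was lowest in WT replicates 3 and 4, at 1900 and 1262 TPM. The other WT libraries had 2943 to 5877 TPM. In cKO crypts it was lowest in replicates 3 and 2, at 6202 and 8671 TPM, against 9201 to 11781 TPM in the others. The T cell and intraepithelial lymphocyte sum was lowest in the same libraries. The parts of the S-phase share and of the cell composition of each crypt sample in the repair values were not tested.

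**Figure D4:**
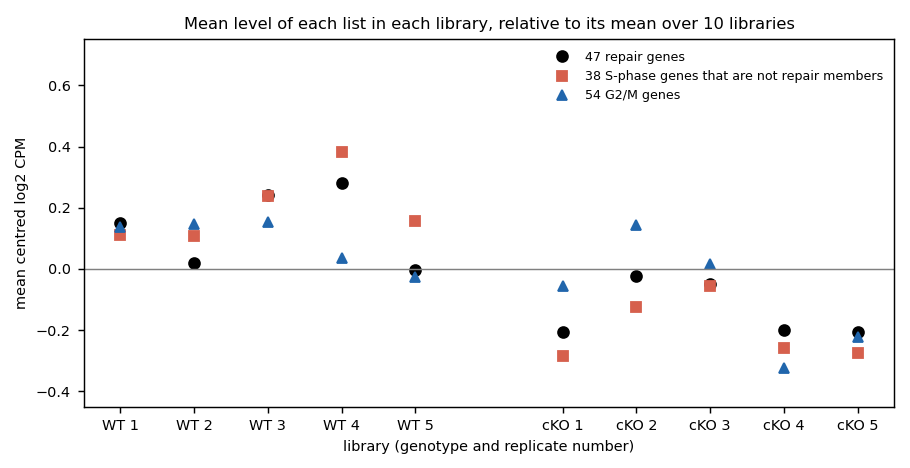
Mean centred log2 CPM (y axis) in each of the 10 libraries (x axis) of the 47 repair genes (black), the 38 S-phase genes that are not among them (red) and 54 G2/M genes (blue), each relative to its own mean over all libraries. The repair and S-phase points are at or above -0.01 in every WT library and at or below -0.02 in every cKO library, while the G2/M points of the genotypes overlap.

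Among 129 other repair genes outside the 47, 128 were tested, 33 fell and 4 rose, with a median log2 fold change of -0.11. Of all tested genes 12.7% fell and 15.6% rose, the shares to set beside this count and the small counts by pathway. By pathway the medians were -0.26 for 14 further Fanconi anaemia genes (4 fell), -0.11 for 26 recombination genes (8 fell), -0.20 for 4 mismatch repair genes (2 fell) and -0.11 for 17 base excision genes (4 fell). They were -0.18 for 15 checkpoint genes (4 fell), -0.07 for 22 nucleotide excision genes (5 fell), -0.03 for 15 end joining genes (2 fell and 2 rose) and 0.03 for 11 translesion genes (1 fell and 2 rose). The 3 further RecQ helicases had a median of -0.34 with 2 called, and the single further resection gene fell with -0.38.

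The 5 of these genes with the smallest adjusted p that fell included subunits of the protein that coats single-stranded DNA. Rpa1 had 119 ± 10.1 CPM in WT against 84.6 ± 6.45 CPM in cKO, log2 fold change -0.49 ± 0.07 SE, adjusted p = 0.00138. Its partner Rpa2 had 50.2 ± 4.36 CPM in WT against 37.5 ± 2.54 CPM in cKO, log2 fold change -0.42 ± 0.08 SE, adjusted p = 0.00281. Both were separated between genotypes, as were Fen1, Recql4 and Tipin. Fen1, the flap nuclease of Okazaki fragments and base excision, had 87.2 ± 7.33 CPM in WT against 61.3 ± 6.09 CPM in cKO, log2 fold change -0.51 ± 0.08 SE, adjusted p = 0.0016. The helicase gene Recql4 had 9.42 ± 1.72 CPM in WT against 6.05 ± 0.323 CPM in cKO, log2 fold change -0.64 ± 0.12 SE, adjusted p = 0.00384, and Tipin, a fork protection factor, had 37.7 ± 3.94 CPM in WT against 28.2 ± 2.79 CPM in cKO, log2 fold change -0.42 ± 0.09 SE, adjusted p = 0.006. Of the 4 genes that rose, Tdp2, which frees trapped topoisomerase from DNA ends, had 41.7 ± 2.99 CPM in WT against 56.7 ± 5.45 CPM in cKO, log2 fold change 0.44 ± 0.08 SE, adjusted p = 0.00264. The others were the nick-end processing gene Aptx (log2 fold change 0.33, adjusted p = 0.0388), Ube2b and Ube2a, which encode the paired E2 enzymes of damage tolerance (log2 fold changes 0.31 and 0.32, adjusted p = 0.0114 and 0.0391).

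Many repair genes begin head to head with another gene, their start sites on opposite strands a short way apart, so that one stretch of DNA serves as the upstream region of both. In the GENCODE annotation of GRCm38, 20 of the 47 had a coding neighbour whose start lay within 1000 bases, and in 17 pairs both genes were tested. The repair gene fell in 8 of the 17 pairs. In these 8 the neighbour fell in 1, rose in 2 and did not pass the threshold in 5. In the other 9 pairs the repair gene did not pass the threshold, and the neighbour passed it in 3, falling in 2 and rising in 1. Beside these few neighbours, 12.7% of all tested genes were called lower and 15.6% higher. Whether neighbours differed from those shares was not tested. Mcm4, a subunit of the replicative helicase whose start lies 466 bases from that of Prkdc, stood at 127, 126, 155, 167 and 122 CPM in the WT libraries. Its cKO values were 85.96, 101, 102, 97.9 and 88.7 CPM (log2 fold change -0.55 ± 0.10 SE, adjusted p = 0.00225). Aimp2, which encodes a scaffold protein of the aminoacyl-tRNA synthetase complex and begins 117 bases from Pms2, was also lower (log2 fold change -0.38 ± 0.11 SE, adjusted p = 0.0186). Tmem167, whose start lies 485 bases from that of Xrcc4, was higher (log2 fold change 0.22 ± 0.06 SE, adjusted p = 0.0225).

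Brca1 and its neighbour moved in opposite directions, each without overlap between genotypes. Their starts lie 194 bases apart, and Nbr1, which encodes an autophagy receptor, stood at 120.1, 101, 120.2, 93.3 and 101 CPM in the WT libraries. Its cKO values were 152, 138, 132, 157 and 156 CPM. Nbr1 was higher in every cKO library than in any WT library (log2 fold change 0.46 ± 0.09 SE, adjusted p = 0.00317), where Brca1 was lower in every one. Xrcc3 fell beside Zfyve21, which rose (log2 fold change 0.37 ± 0.12 SE, adjusted p = 0.0386) with WT replicate 2 inside the cKO range. Rad54l and Pomgnt1 fell together (log2 fold change -0.29 ± 0.09 SE, adjusted p = 0.0271 for Pomgnt1), and Palb2 fell beside Dctn5, which did not pass the threshold (log2 fold change -0.03 ± 0.08 SE, adjusted p = 0.827). The stretch between the first bases of Brca1 and Nbr1 is shown because both genes start from it and moved in opposite directions. It is taken from RefSeq (GRCm38.p6, chr11:101551956-101552148), written 5′ to 3′ on the minus strand toward Brca1, with the CCAAT word in capitals.
Brca1-Nbr1: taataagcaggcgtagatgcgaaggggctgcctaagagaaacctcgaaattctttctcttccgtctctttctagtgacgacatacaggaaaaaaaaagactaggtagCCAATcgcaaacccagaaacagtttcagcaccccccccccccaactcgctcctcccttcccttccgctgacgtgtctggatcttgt

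**Figure D5:**
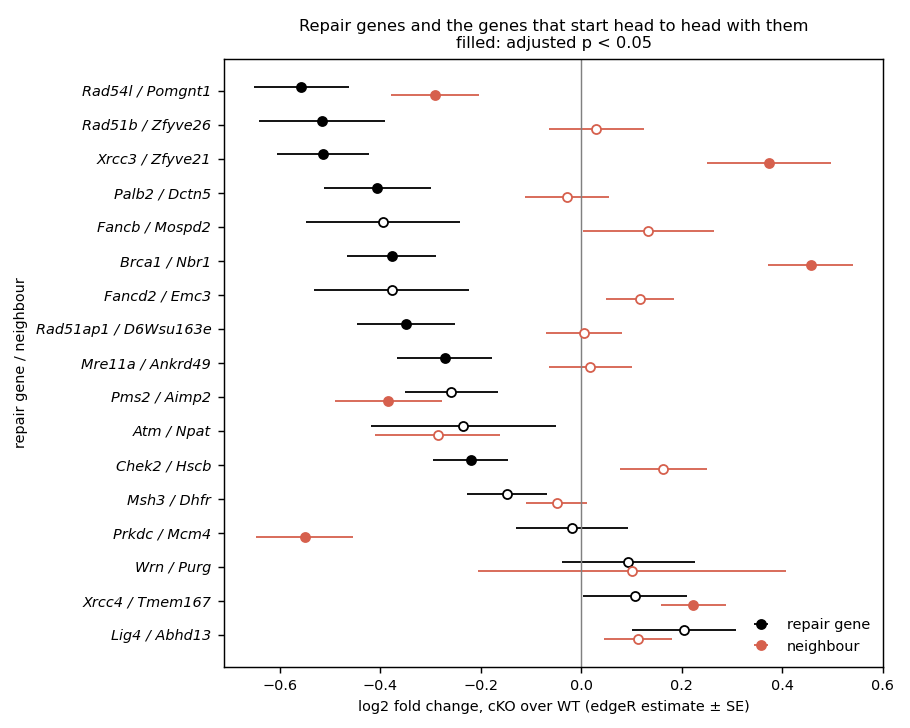
Log2 fold change of cKO over WT (x axis, edgeR estimate ± SE) of 17 repair genes (black) and of the genes that start head to head with them (red), 1 pair per row, with filled points past the adjusted threshold of 0.05. Brca1 and Nbr1, and Xrcc3 and Zfyve21, have filled points on opposite sides of 0, and Rad54l and Pomgnt1 have both filled points on the left.

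The sequences around the starts were searched for the words of regulators of cycling genes. RefSeq start windows (250 bases before to 50 bases after the start, GRCm38.p6) matched 38 of the 47 genes by symbol. Words of the E2F family, factors that switch on genes for DNA replication, were TTTCCCGC, TTTGGCGC, TTTCGCGC and TTTGCCGC, and all words were searched on both strands, where some E2F words overlap. At least 1 of them stood in the windows of 10 of the 38 genes (26.3%), against 4.45% of 10708 tested genes with a window. Among the genes that fell 5 of 22 held one (22.7%), and among those not past the threshold 5 of 16 (31.2%). Not all of these words were upstream. In Lig1 and Msh6, which fell, the word began 26 and 15 bases after the RefSeq start. Rad51c, which did not pass the threshold, had 1 word in each of its RefSeq windows. They began at 11 and -5 bases relative to the starts, the second running across the start. In Xrcc6, which fell, and Fancg, which did not pass the threshold, it began 28488 and 153 bases after the GENCODE start. The word CCAAT, bound by the NF-Y complex, stood in 21 of 38 (55.3%) against 42.9% of the tested genes, in 16 of the 22 that fell (72.7%) and in 5 of the 16 others (31.2%). TTTGAA, a cell cycle homology region word, stood in 5.26% against 14.8%, and ATTAAA, an AT-rich word of the kind ARID proteins bind, in 13.2% against 9.70%. A match describes the letters of the window only.

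Stretches of 80 bases around the E2F word are shown for 4 genes, since the word stood upstream of genes that fell (Topbp1 and Chek2) and of genes that did not pass the threshold (Brca2 and Bard1). Capitals mark the word as it reads 5′ to 3′ on the strand of the gene, which for GCGGGAAA and GCGCGAAA is the reverse complement of a listed word. They come from RefSeq (GRCm38.p6) at chr9:103305162-103305241, chr5:110839795-110839874 and chr5:150522417-150522496 on the plus strand and chr1:71103138-71103217 on the minus strand, and the word begins at -129, -152, -168 and -209 bases relative to the RefSeq start. Relative to the start of the gene in the GENCODE annotation, it begins at -17, -148, -177 and -35. Of the 80 bases, 27 in the Topbp1 stretch and 9 in the Bard1 stretch lie in annotated exons, against 0 for Chek2 and Brca2.
Topbp1: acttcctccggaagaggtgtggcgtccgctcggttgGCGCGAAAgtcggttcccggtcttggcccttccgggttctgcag
Chek2: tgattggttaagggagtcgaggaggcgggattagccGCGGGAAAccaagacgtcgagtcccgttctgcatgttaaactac
Brca2: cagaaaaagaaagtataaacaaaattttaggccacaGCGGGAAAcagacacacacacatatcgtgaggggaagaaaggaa
Bard1: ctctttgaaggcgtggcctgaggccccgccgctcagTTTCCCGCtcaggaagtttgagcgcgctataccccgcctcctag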

How the data were processed

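The authors aligned reads of polyadenylated RNA to GRCm38 with STAR and estimated gene levels with RSEM, and they deposited for each library the expected counts (estimated counts, not normalized between libraries), the TPM (transcript abundance per length and library) and the effective length of 54838 genes. RSEM divides reads shared by several genes. The strand setting was not given in the sources used here, so genes with overlapping exons may share counts. Symbols were assigned to 54723 genes from an annotation table.

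Expected counts were rounded and fitted in R 4.3.3 with edgeR 4.0.16: filterByExpr (minimum count 10, minimum total 15) kept 14719 genes, TMM gave the library factors, and genotype was tested by the robust quasi-likelihood test over all 10 libraries with Benjamini-Hochberg adjustment over all tested genes and a threshold of 0.05. The study fitted DESeq2, which was run as an alternative (1.42.0), with the limma-voom and TPM alternatives from limma 3.58.1. Levels compared between genotypes are CPM on TMM-normalized library sizes, values of the 5 libraries are given in the order of replicates 1 to 5, and levels compared between genes are TPM. Scores per library are means of log2(CPM + 0.5), centred over the 10 libraries. Reads carry no molecular identifiers, and the p-values cover the spread between these animals.

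Every repair gene is named. Values for each library are given for those past the threshold without overlap between genotypes, and in each of the 8 groups for the gene with the smallest adjusted p and the one with the highest TPM. Of other repair genes, up to 5 per direction are named by adjusted p. Neighbours, overlaps and partner ratios were named outside this rule, after values were seen. The repair genes and the lists were chosen with earlier results of these data known, and the S-phase and G2/M lists come from Seurat 5.3.0. Median log2 fold changes are given here for the marker lists other than those of enterocytes, Paneth cells and B and plasma cells. They were 0.15 (T cells and intraepithelial lymphocytes), -0.17 (fibroblasts), -0.56 (myeloid cells), -0.53 (endothelium, 2 genes tested) and -0.73 (smooth muscle, 4 genes tested), and 0.07 for the epithelial markers. No transcript of another locus matched a repair gene at 95% identity over 300 bases or more. On simulated data of 14518 genes for the same comparison, the fit called 14 of 50 genes lowered by 0.4 and 46 of 50 lowered by 1 on the log2 scale. Of 50 raised by 0.4 it called 13, of 50 raised by 1 it called 38, and it called 5 unchanged genes. Far fewer genes changed there than were called in the data, which makes the adjusted threshold harder to pass, so this recovery need not hold for the real fit.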

Additional observations from a re-analysis of the deposited data

Results flagged for a closer look

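Each repair gene was checked for a library far from the other 4 of its genotype, by the gap to the nearest library divided by the range of the group (Dixon's limit 0.71), and 3 of 94 groups of 5 libraries passed that limit, where chance alone gives about 1 in 20. Fanca in WT replicate 4 was at 27.6 CPM, with the other WT libraries between 18.5 and 20.4 CPM. Lig4 in WT replicate 1 was at 19.7 CPM, above the 14.8 to 16.0 CPM of the others. Xrcc1 in cKO replicate 4 was at 28.8 CPM, below the 32.5 to 33.4 CPM of the other cKO libraries.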

How the results depend on the processing

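The count of 25 lower repair genes was 27 with DESeq2, 25 with RLE factors, 18 without a filter on low counts, 27 with at least 10 counts in every library, 25 without rounding, 17 with the effective length as an offset, 21 with limma-voom, and 23 and 22 on log2(TPM + 0.1) and log2(TPM + 1). Scaling by library size only gave 36 and moved the median of the repair genes from -0.28 to -0.41, while the median of all tested genes moved from -0.03 to -0.16. Without each library in turn the lower count ranged from 15 to 25, the higher count from 0 to 1 (Lig4) and the median from -0.34 to -0.24.

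The replicate block, which pairs libraries by number, gave 15 lower genes, none higher and a median of -0.27. Deviations of same-numbered libraries correlated at -0.16 to 0.13, with 1 of 5 pairs over 0.1 and no library closest to its own number, so the numbers were not taken as pairs.

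Of the 47 genes 5, with reported estimates from -0.12 to 0.11, changed sign under an alternative. With library size only, Wrn was at -0.042, Brip1 at -0.12 and Xrcc4 at -0.023. With the effective length as an offset Brca2 was at 0.049. On TPM with pseudocounts of 0.1 and 1, Wrn was at -0.028 and -0.031 and Brip1 at -0.038 and -0.030. Leaving out single libraries gave Prkdc -0.0896 to 0.0348 and Brip1 -0.0545 to 0.0794. The causes were not tested. The least counted repair gene, Rad51c, had 98 counts in its lowest library.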
